A study of Rattus norvegicus with 6 samples.

Results

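The regions described are those of the rat genome where 3 histone lactylation marks were called in opposite conditions. H4K16la had a peak with lactate and none in control, while H3K9la and H4K8la had a peak in control and none with lactate. All peaks of the 6 deposited lists were pooled and merged wherever they overlapped by 1 bp or more, which gave 176698 regions, and 1401 of them met this rule. They were chosen by the presence or absence of a peak in each list and by no other value. They are 0.793% of all regions (Wilson 95% interval 0.753 to 0.835) and are called opposed regions below. The cells were wild-type rat tenocytes, the fibroblast-like cells of tendon, cultured from tendon in 1640 medium. One CUT&Tag library per mark was made from cells given 20 mM lactate and 1 from cells labelled as given none, although the treatment protocol in the labels names lactate for all 6 libraries. The labels give no donor, passage or sex, and tenocyte marker genes were not analysed here. With 1 library per mark and condition there is no replicate, no p-value was computed, and a difference between lactate and control cannot be told apart from a difference between libraries.

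Lactylation is the transfer of a lactyl group, which comes from lactate, to a lysine side chain. On histones it is one of several acyl marks that neutralise the charge of a lysine, and it has been linked in other cell types to active promoters and enhancers and to the glycolytic state of the cell. H3K9la sits on the tail of histone H3, and H4K8la and H4K16la sit on the tail of histone H4, so H4K8la and H4K16la can lie on the same histone molecule. CUT&Tag brings a transposase to the mark through an antibody, and the enzyme cuts and tags the DNA nearby. Each library used 1 antibody on its own cells, so a region with peaks of different marks is a place where separate libraries had peaks, not a nucleosome shown to carry them together.

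Each of the 3 calls that define an opposed region was frequent by itself. H4K16la was called with lactate only at 44477 of the 176698 regions, which is 25.2%. H3K9la was called in control only at 22.4% and H4K8la in control only at 23.9%. The rule used these contrasts, so nothing is read from the number of opposed regions against these shares. The 3 lists that must have a peak were also the 3 longest, with 62563 peaks for H4K16la lactate, 61850 for H3K9la control and 61347 for H4K8la control. The 3 that must have none were the shortest, with 46597 peaks for H3K9la lactate, 42787 for H4K8la lactate and 40681 for H4K16la control. Depth was read from the genome-wide background in fragments per base, recovered from the fold and p of the peaks. It was 2.84 in H4K16la lactate and 1.53 in H4K16la control, 1.88 in H3K9la lactate and 2.17 in H3K9la control, and 1.55 in H4K8la lactate and 1.32 in H4K8la control. Long lists and 2 of the 3 deeper libraries thus stand on the side with the peaks, and for H4K8la the deeper library stands on the side without one.

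A peak in exactly 3 of the 6 lists was found at 12140 regions, in 20 possible arrangements. The opposed regions were the most numerous arrangement and made up 11.5% (10.98 to 12.1) of these regions. The next was both H3K9la libraries with H4K8la control, at 1376 regions. The mirror image, H4K16la in control with H3K9la and H4K8la with lactate, was the least numerous at 132. The same 2 arrangements were first and last by the summed length of their 3 lists, with 185760 peaks for the opposed regions and 130065 for the mirror image. Among the 8 arrangements with each mark in just 1 condition, the opposed regions held 31.0% (29.7 to 32.4) of 4519 regions, and the regions of all 3 marks in control came second with 854.

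**Figure D1:**
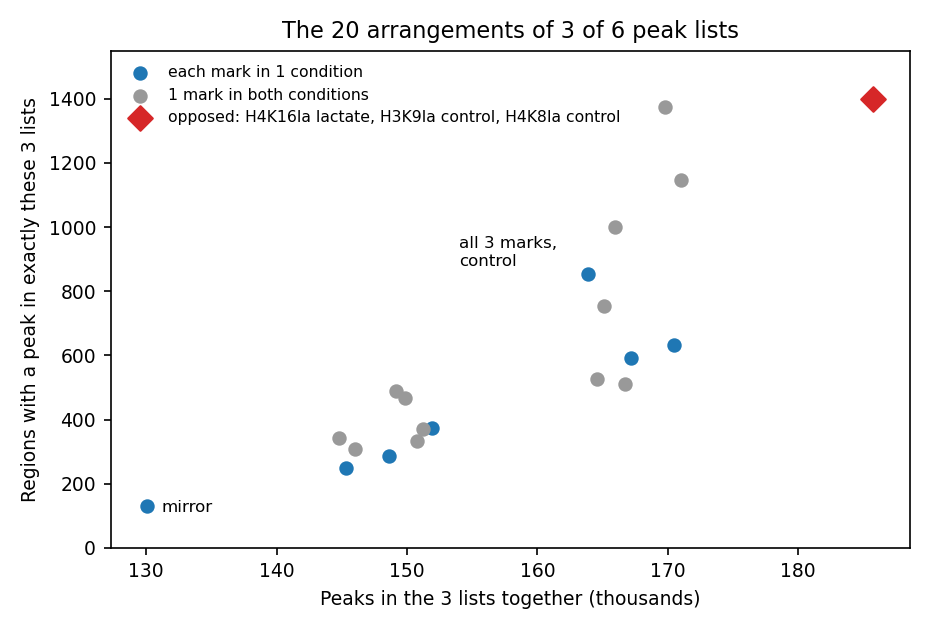
Each point is 1 of the 20 arrangements of 3 peak lists, with the summed number of peaks in its 3 lists on the x axis (in units of 1000) and the number of regions with a peak in exactly those lists on the y axis. The opposed regions, at 1401, lie at the upper right with the longest lists, and the mirror image, at 132, at the lower left with the shortest.

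The working name of these regions speaks of H4K16la replacing the other marks. The calls were therefore read from the other side, starting with the regions where H3K9la and H4K8la both had a peak in control only. There were 6625 of them, and H4K16la had no peak at all at 52.2% (51.0 to 53.4). H4K16la was called with lactate only at 21.1% (20.2 to 22.1), which are the opposed regions, in control only at 12.9% (12.1 to 13.7), and in both conditions at 13.8% (13.0 to 14.6). Over all 176698 regions H4K16la had no peak at 52.0%. It was called there with lactate only at 25.2%, in control only at 12.9% and in both conditions at 9.99%. The shares with no H4K16la peak and with control only were thus near those of all regions, and the lactate-only share was lower. Where H3K9la and H4K8la were both called with lactate only, at 1472 regions, H4K16la was called with lactate only at 25.4% (23.2 to 27.7) and in control only at 8.97% (7.61 to 10.5). The lactate-only calls of H4K16la outnumbered its control-only calls 1.64 times (counting interval 1.51 to 1.79) where the other marks were called in control only, 2.83 times (2.32 to 3.45) where they were called with lactate only, and 1.95 times (1.92 to 1.99) over all regions. The first of these ratios is 1401 over 854, a count that the rule itself fixed, and the intervals cover counting error only, so the ratios are a description. The first ratio also changed with the setting. It fell below 1 with equal numbers of peaks in all lists, at 0.911 (626 over 687 regions). With −log10 q of at least 10 in all lists it was 0.938 (91 over 97), where 0 of the 91 overlapped an opposed region. It was 1 (1028 each) with the deeper libraries scaled down and pileups rounded down. It stayed above 1 in other settings. These were 1.17 with −log10 q of at least 5 in all lists and 1.23 with pileups scaled and rounded to the nearest whole number. Joining peaks up to 500 or 1000 bp apart gave 1.62 and 1.65. The calls do not show a replacement at one place in the same cells, and the name is not used further.

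The split of H4K16la was also followed along the strength of the 2 control peaks. The 6625 regions were cut into 5 groups of 1325 by the mean −log10 q of their H3K9la and H4K8la control peaks, where q is the authors' false discovery rate and a higher −log10 q is a stronger peak. Opposed regions made up 18.8%, 21.8%, 20.98%, 20.9% and 23.2% of these groups from weakest to strongest. Regions of all 3 marks in control made up 9.13%, 10.9%, 12.7%, 16.6% and 15.1%. Both shares were lowest in the weakest group, so neither arrangement was confined to weak control peaks.

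The peaks of the opposed regions were of middling strength. They numbered 1409 in H4K16la lactate, 1409 in H3K9la control and 1418 in H4K8la control, because 30 regions held 2 peaks of at least 1 list. The median −log10 q of these peaks was 3.63 in H4K16la lactate, against 3.398 over all peaks of that list. In H3K9la control it was 4.05, against 3.74 over all peaks. In H4K8la control it was 3.75, against 3.60 over all peaks. The median peak of an opposed region stood at percentile 55.7, 54.8 and 52.2 of its list in that order of libraries. Peaks from the top 10% of the list made up 5.96%, 6.74% and 3.67% of them, and the highest −log10 q reached were 16.5, 16.8 and 17.2. Regions with a peak in all 6 lists, 7268 in number, held medians of 6.59, 7.46 and 8.58 in the same 3 lists, above those of the opposed regions.

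**Figure D2:**
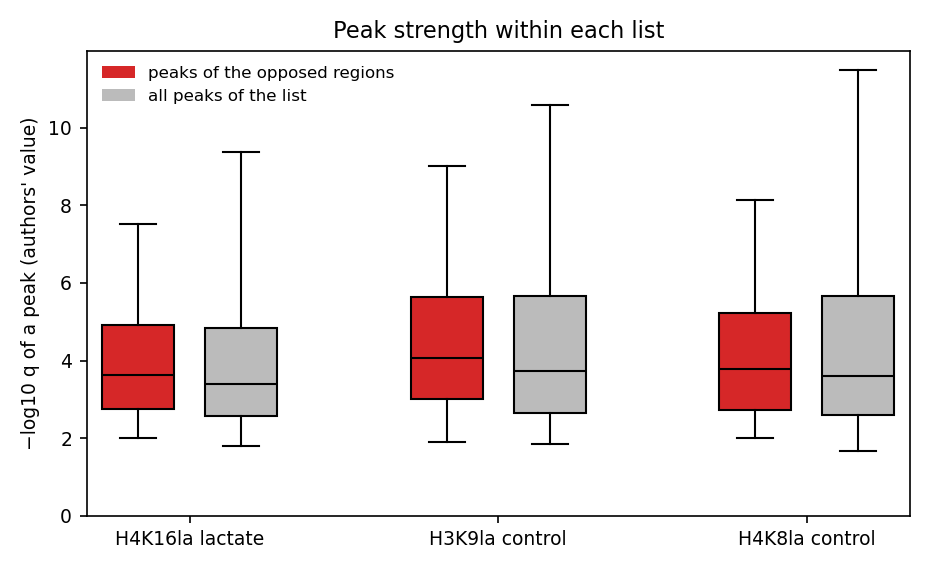
Boxes show the −log10 q of the authors' peaks in the 3 lists that define the opposed regions, with the median, the quartiles and whiskers at the 5th and 95th percentiles, for the stronger peak per list of each opposed region and for all peaks of the list. The medians are close in each list, and the upper whisker of the opposed regions is the lower one in all 3.

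In fragments, the summit of an opposed region was covered by a median of 18 fragments in H4K16la lactate (quartiles 15 to 22, range 10 to 45), 19 in H3K9la control (15 to 25, range 8 to 68) and 13 in H4K8la control (11 to 18, range 6 to 61). Over the genome-wide background of the library these medians are 6.33, 8.77 and 9.87 times. The median fold over local background was 3.42, 3.42 and 3.88. The fewest fragments with which a peak was called on genome-wide background were 10 in H4K16la lactate and 7 in H4K16la control, so the 2 libraries needed a summit of 3.52 and 4.57 times their background. For H3K9la the same limits were 8 fragments and 4.26 times with lactate and 8 fragments and 3.69 times in control. For H4K8la they were 7 fragments and 4.52 times with lactate and 6 fragments and 4.56 times in control. A summit of equal height over background can thus be a peak in H4K16la lactate and in H3K9la control and fall short in the other library of the mark.

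That gap was measured by scaling each summit, with its local background, to the depth of the other library of its mark, and asking whether it would still pass the lowest p called there. For H4K16la lactate 1117 of the 1401 regions passed, 79.7% (77.5 to 81.8), against 72.4% of all peaks of the list. For H3K9la control 1378 passed, 98.4% (97.5 to 98.9), against 97.7% of all peaks. For H4K8la control the other library is the deeper one, so summits were scaled up and a pass was near certain. All 1401 passed, against 99.97% of all peaks. All 3 passed at 1101 regions, 78.6% (76.4 to 80.7), a count that H4K8la did not lower. With scaled pileups rounded down instead of to the nearest whole number, 956 regions passed for H4K16la and 1337 for H3K9la. The scaled H4K16la summit fell below the lowest p called in H4K16la control at 284 regions. The part of depth in the calls was not tested further.

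The 3 peaks of an opposed region mostly lay on each other. The H4K16la lactate peak overlapped the H3K9la control peak in 96.7% of the regions and the H4K8la control peak in 95.3%, and the 2 control peaks overlapped in 95.4%. All 3 shared at least 1 base in 1238 regions, 88.4% (86.6 to 89.9), and the shared stretch had a median of 267 bp. No base was shared by all 3 in the other 163 regions. The peak in the middle was H4K16la lactate in 61, H3K9la control in 60 and H4K8la control in 40, and 2 regions were joined in another way. The merged regions had a median width of 834 bp (quartiles 684 to 1042, range 327 to 2194). The median was 869.5 bp in the regions of all 3 marks in control, 789.5 bp in those of all 3 marks with lactate and 731.5 bp in the mirror regions. Of the opposed regions 42 reached 1.5 kb, 3.00%, against 2.60% of all regions and 6.09% of those of all 3 marks in control.

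Summit positions were not part of the rule. The H4K16la lactate summit lay a median of 160 bp from the H3K9la control summit and 174 bp from the H4K8la control summit, and the 2 control summits lay 182 bp apart. The summits of the mark called with lactate were therefore no farther from the control summits than these were from each other. The span of all 3 summits had a median of 292 bp. It was 312 bp in the 854 regions of all 3 marks in control, 290.5 bp in the 374 of all 3 marks with lactate and 292.5 bp in the 132 mirror regions, so arrangements of the same and of mixed conditions had like spans. In the 7268 regions of all 6 lists, whose peaks are stronger, the same 3 lists spanned 226 bp.

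Over the opposed regions the 3 lists shared summit height more than −log10 q. Spearman's rho of −log10 q over the 1401 regions was 0.14 for H4K16la lactate with H3K9la control, 0.12 for H4K16la lactate with H4K8la control and 0.14 for the 2 control lists, which is too weak to be read. For the number of fragments at the summit it was 0.28, 0.34 and 0.57 for the same pairs, highest for the 2 control lists. The highest percentile within its own list belonged to H4K16la lactate in 496 regions, to H3K9la control in 491 and to H4K8la control in 414. The local background, the coverage around the summit, was shared more closely than summit height. Its rho was 0.49 for H4K16la lactate with H3K9la control, 0.56 for H4K16la lactate with H4K8la control and 0.80 for the 2 control lists. In the regions of all 3 marks in control, H4K16la control had a rho of 0.65 with H3K9la control and 0.79 with H4K8la control. Summit height was also shared more than −log10 q there, with rho of 0.45, 0.52 and 0.58 against 0.17, 0.10 and 0.11 (H4K16la with H3K9la, H4K16la with H4K8la, H3K9la with H4K8la). In the regions of all 6 lists the rho of −log10 q was 0.38, 0.40 and 0.38 for the 3 pairs of the opposed regions. That of summit height was 0.27, 0.41 and 0.45, so the order differed for the first pair. These are descriptions over regions of the same libraries, which share base composition and mappability, and regions are not replicates.

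The strongest opposed region by mean −log10 q lay at chr1:185043374-185044141 (build rn7, positions counted from 1). Its −log10 q was 16.5 in H4K16la lactate, 15.3 in H3K9la control and 6.28 in H4K8la control, with summits of 36, 31 and 16 fragments. These are 12.7, 14.3 and 12.1 times the backgrounds of the libraries, so the height over background was alike although the −log10 q was not. The 3 summits fell within 64 bp, and the nearest peak of a list without one in the region was an H4K16la control peak 17361 bp away.

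At chr9:86831349-86831914 the −log10 q was 16.002 in H4K16la lactate, 13.6 in H3K9la control and 7.78 in H4K8la control. The summits held 45, 34 and 20 fragments, which is 15.8, 15.7 and 15.2 times background, the most even heights of the 10 strongest. No peak of the lists without one here lay within 26955 bp. The same region was also second by its weakest peak.

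In the next regions H4K16la was the weakest of the 3 marks. At chr16:45474516-45475520 it had a −log10 q of 4.27 and a summit of 18 fragments, against 16.8 and 48 fragments in H3K9la control and 15.3 and 31 in H4K8la control. The heights over background were 6.33, 22.1 and 23.5 times, so the H4K16la lactate summit was the lowest by far. An H3K9la lactate peak of −log10 q 1.36, near the threshold, lay 3740 bp away. At chr17:85205869-85206594 the −log10 q was 7.18 in H4K16la lactate, 14.2 in H3K9la control and 15.0 in H4K8la control, with all summits within 50 bp. This region had peaks of 2 lists that lack one inside it at close range, H4K8la lactate at 509 bp (−log10 q 5.39) and H4K16la control at 526 bp (4.06).

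The region chr15:51601424-51602342 followed, with −log10 q of 4.91 in H4K16la lactate, 13.9 in H3K9la control and 14.4 in H4K8la control. At chr14:34863862-34864452 the values were 4.13, 15.5 and 12.1, and an H3K9la lactate peak of −log10 q 7.13 lay 770 bp away. At chr7:111675752-111676961 they were 6.72, 7.91 and 14.0. H4K16la lactate was the weakest peak in each of them, although at the region on chromosome 7 it was close to H3K9la control. At chr1:7237427-7237948 the −log10 q was 5.66 in H4K16la lactate, 16.2 in H3K9la control and 6.36 in H4K8la control. At chrX:152038627-152039714 H4K16la lactate led with 12.1, ahead of 10.0 in H4K8la control and 5.70 in H3K9la control. At chr18:3624414-3624903 it led with 14.7, ahead of 8.85 in H3K9la control and 4.196 in H4K8la control.

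**Figure D3:**
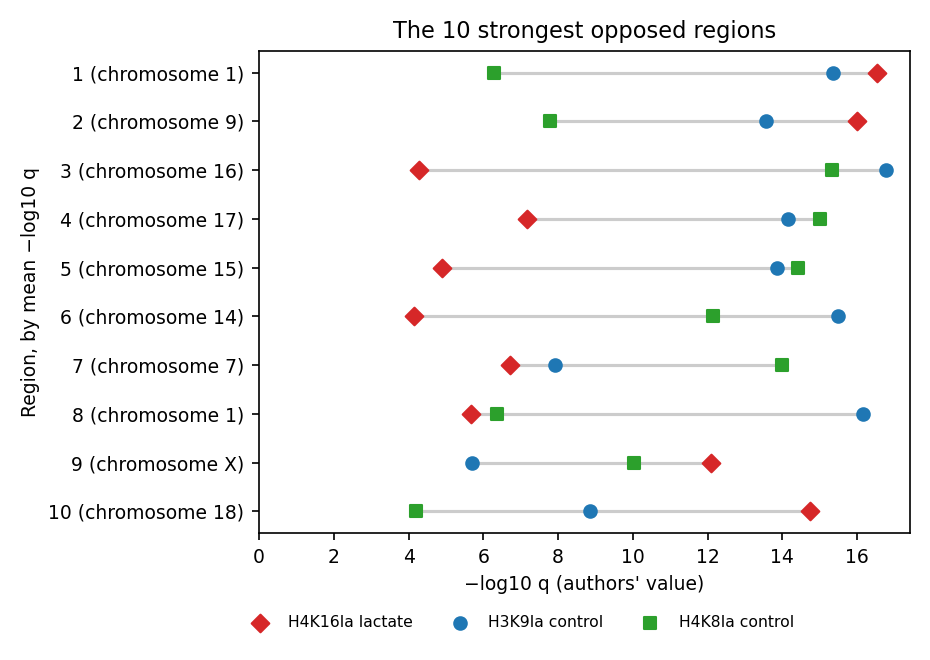
Points give the authors' −log10 q of the peak in H4K16la lactate, H3K9la control and H4K8la control at the 10 opposed regions of highest mean −log10 q, ordered from top to bottom, with a grey line over their range. H4K16la lactate is the lowest of the 3 in 6 regions and the highest in 4.

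All 3 summits of each of these 10 regions passed the scaling to the other library of the mark. They were picked for high −log10 q, so a pass was likely beforehand. Their nearest peak of a list without one in the region lay 509 to 26955 bp away, and in 5 of the 10 it lay within 5 kb. The 3 peaks reached −log10 q of at least 5 together in 57 opposed regions, 4.07%, and of at least 10 in 0. The highest value for the weakest of the 3 peaks belonged to chr1:134249630-134250385, with 9.30 in H4K16la lactate, 8.15 in H3K9la control and 10.1 in H4K8la control. Its summits of 34, 31 and 32 fragments lay within 15 bp of each other.

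Among the 100 strongest regions the closest summits were at chr3:113117370-113118190 and chr13:83666721-83667304, each with all 3 within 2 bp, and at chr10:65042919-65043763, within 6 bp. At the region on chromosome 3 the −log10 q was 6.02 in H4K16la lactate, 11.96 in H3K9la control and 7.78 in H4K8la control. At the one on chromosome 13 it was 6.28, 9.33 and 5.83, and at the one on chromosome 10 it was 7.90, 11.05 and 6.38. The 100 strongest regions had a median summit span of 154.5 bp.

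The widest opposed regions were built differently. At chr12:32727649-32729842, 2194 bp wide, an H4K8la control peak of 1683 bp carried most of the width and 4 peaks were merged. At chr2:240960866-240963031, 2166 bp wide, the H3K9la control peak covered 1766 bp and the summits of the 3 lists spanned 1531 bp, the widest span of all opposed regions. At chr4:117890711-117892740 the H3K9la control peak filled the whole 2030 bp, while H4K16la lactate had a narrow peak of 313 bp with a −log10 q of 2.10. Its H4K16la summit of 16 fragments did not pass the scaling to H4K16la control. The other 2 regions passed for all marks.

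Most opposed regions lay away from peaks of the lists that lack one there, but not far away. An H4K16la control peak was found within 5 kb of 17.0% (15.1 to 19.0) of them, an H3K9la lactate peak within 5 kb of 20.6% (18.6 to 22.8) and an H4K8la lactate peak within 5 kb of 15.1% (13.4 to 17.1). The comparison group is the other 80746 regions with no peak in any of these 3 lists, where the shares were 17.4%, 20.6% and 17.8%. The median distances were 12488, 11122 and 13795 bp at opposed regions, against 14985.5, 13117 and 14924.5 bp at the comparison regions. At 20 kb the shares were 69.2%, 72.6% and 65.9% at opposed regions, against 59.9%, 64.8% and 60.4%. Against these mixed regions the medians were thus shorter and the 20 kb shares higher. The group most like the opposed regions gave another picture. It is the 3457 regions with H3K9la and H4K8la in control and no other peak, where the 5 kb shares were 20.7%, 26.4% and 21.9%, all above those of the opposed regions. Their 20 kb shares were 68.7%, 75.4% and 68.1% and their median distances 12196, 10012 and 12225 bp, all 3 shorter than at opposed regions. The direction of the difference in median distance thus turned with the regions chosen for comparison. At 5 kb the shares of the opposed regions were near or below those of both groups. At 20 kb the share for H4K16la control was above that of the mixed regions. It was near that of the like group, at 69.2% (66.7 to 71.5) against 68.7% (67.2 to 70.3). No test over samples can be made of these differences.

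**Figure D4:**
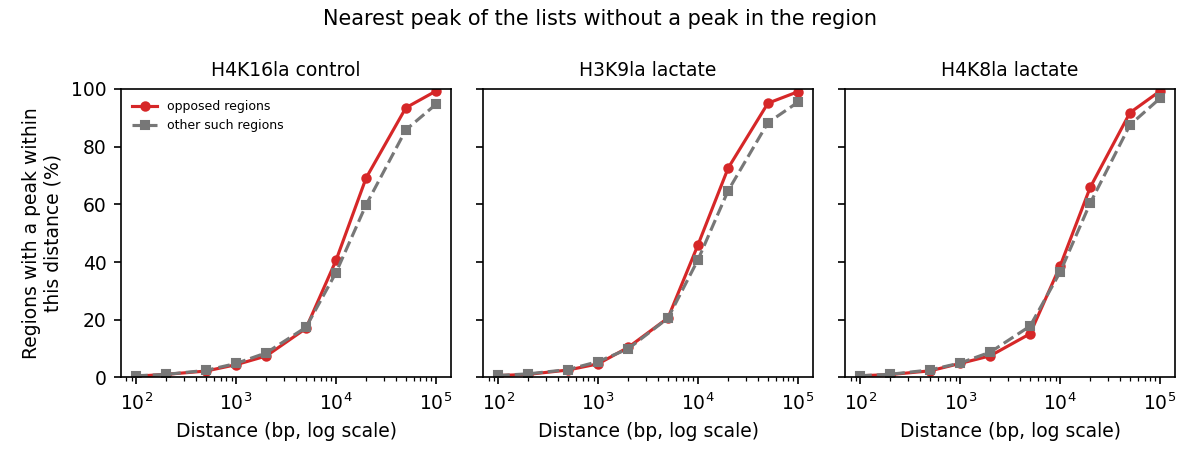
Each panel shows, for 1 list with no peak in the region, the share of regions with a peak of that list within the distance on the x axis (bp, log scale), for the opposed regions and for the other 80746 regions with no peak in these 3 lists. At 5 kb the lines lie close together, with the opposed regions lower for H4K8la lactate, and at 20 kb the opposed regions lie higher in all 3 panels.

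Within 200 bp, 15 opposed regions had an H4K16la control peak, 15 an H3K9la lactate peak and 14 an H4K8la lactate peak, 43 regions in all. These are 1.07%, 1.07%, 0.999% and 3.07% of the opposed regions. Among the other 80746 regions with no peak in these lists the shares were alike, at 1.06%, 1.24%, 1.10% and 3.23%. For the 43 opposed regions the absence of a call rests on a short gap between peaks. The most isolated regions were at chr2:140181434-140182509, with 82920 bp to the nearest peak of those 3 lists, at chr7:32693542-32694834 with 74059 bp and at chr4:41773493-41774848 with 65867 bp. Their H4K16la lactate peaks were weak, with a −log10 q of 2.09, 1.89 and 1.93 and summits of 11, 11 and 12 fragments, and none of the 3 passed the scaling to H4K16la control. The first nevertheless had control peaks of 6.80 in H3K9la and 6.64 in H4K8la.

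At the threshold itself, the weakest opposed regions by mean −log10 q were chr13:70479816-70480688 and chr7:31387311-31388188. The first had 1.37 in H4K16la lactate, 1.84 in H3K9la control and 2.00 in H4K8la control, and the second had 2.10, 1.42 and 1.94. The regions just outside the rule carried the same 3 peaks plus 1 more that barely passed. At chr4:154402893-154403859 the extra peak was H3K9la lactate with a −log10 q of 1.32, beside 4.16, 3.86 and 1.94 in the 3 lists. At chrX:152153090-152154418 it was H4K16la control with 1.33, beside 2.81, 3.36 and 7.66. Regions with the 3 lists and exactly 1 more numbered 3069, more than the opposed regions. The extra list was H3K9la lactate in 1342, H4K16la control in 913 and H4K8la lactate in 814, and the median −log10 q of the extra peak was 3.75.

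Opposed regions were spread over all autosomes and X. They numbered 0.532 per Mb of the span covered by peaks and 7.93 per 1000 merged regions. Over the 20 autosomes they ranged from 6.13 per 1000 merged regions on chromosome 12 to 10.4 on chromosome 20, and from 0.446 per Mb on chromosome 2 to 0.886 per Mb on chromosome 10. On chromosome X there were 20, which is 0.131 per Mb and 4.08 (2.64 to 6.29) per 1000 merged regions, below every autosome. Regions in exactly 3 lists, whatever the arrangement, were also scarce there, with 1.75% of them on X, against 1.43% (0.926 to 2.19) of the opposed regions and 2.78% of all merged regions. On chromosome Y there were 0 of 1401, which allows a share of up to 0.214% by a limit of 3 counts (the Wilson upper limit is 0.273%), and 42 merged regions in all. Whether the copy number of X had a part was not tested.

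**Figure D5:**
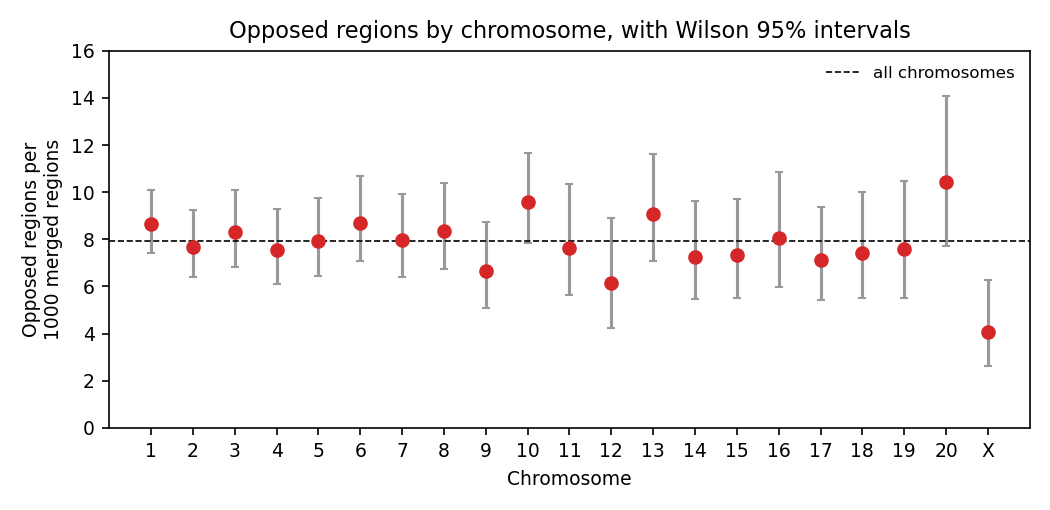
Points give the number of opposed regions per 1000 merged regions on chromosomes 1 to 20 and X, with Wilson 95% intervals for counting error, and the dashed line the value over all chromosomes, 7.93. Chromosome X, at 4.08, lies below all autosomes, whose intervals all reach the line.

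The spacing of opposed regions is given without a comparison group, and whether they cluster was not tested. The nearest other opposed region was a median of 336220 bp away, 3.71% had one within 20 kb and 21.3% within 100 kb. They fell into 895 of 2642 windows of 1 Mb, with 1 region in 538 windows, 2 in 235 and 3 or more in 122. The fullest window, on chromosome 1 from position 204000001, held 6 of them among 123 merged regions, and windows on chromosome 2 from 182000001 and on chromosome 13 from 77000001 held 5 each. These windows were singled out after their values were seen, as were the pairs that follow. Just 2 pairs lay within 1 kb of each other, on chromosome 6 with 682 bp between them (chr6:41172481-41173828 and chr6:41174511-41175301) and on chromosome 14 with 547 bp (chr14:73003702-73004699 and chr14:73005247-73005740). Within 2 Mb of a chromosome end lay 26 opposed regions, 1.86% (1.27 to 2.71), against 2.90% (2.83 to 2.98) of all regions. In the most peak-dense 1% of 1 Mb windows lay 2.86% (2.10 to 3.86) of them, against 2.25% (2.18 to 2.32) of all regions. A region with a peak in all 6 lists stood within 5 kb of 24 opposed regions, 1.71% (1.15 to 2.54), against 2.23% of the other regions lacking the same 3 lists. At 20 kb the shares were 16.8% (14.9 to 18.8) and 14.4%. The median distances to such a region were 68481 bp at opposed regions and 95922 bp at the others. At 5 kb the share of the others thus lay within the interval of the opposed regions, while the 20 kb share was higher at opposed regions and the median distance shorter. The 3457 regions with H3K9la and H4K8la in control and no other peak were not compared in this respect.

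The number of opposed regions changed with list length and threshold. Joining peaks up to 500 or 1000 bp apart (1510 and 1569) or asking for a shared base (1238) changed it less. Stricter overlap rules also lowered it, to 849 where each pair of peaks overlapped by at least 50% of the shorter. Asking for summits within 250 bp left 587. With each list shortened to its 40681 strongest peaks, 626 regions had the arrangement, and 575 of these overlapped an opposed region. It was then number 5 of the 20, and the regions of all 3 marks in control numbered 687, so the order of these 2 arrangements turned round. With the deeper library of each mark scaled to the shallower, 1175 had it, second of the 20, beside 954 of all 3 marks in control. With peaks of −log10 q of at least 5 in all lists there were 537, beside 460 of all 3 marks in control, but 56 of the 537 overlapped an opposed region. At that threshold most regions with the arrangement therefore had a weaker peak in a list counted as empty. Raising the limit to 10 left 91, beside 97 of all 3 marks in control, with 0 of the 91 overlapping an opposed region.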

How the data were processed

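Peak lists of 6 CUT&Tag libraries were used, 1 per mark and condition, grouped by sample title, which matches the treatment label of each sample. The treatment protocol names lactate for all 6, so the untreated state rests on these 2 labels. The tools named per the submitters' processing notes are MACS2, Bowtie2, cutadapt, FastQC and deepTools, with build rn7. Versions, settings and whether an IgG library was used are not given in those notes or in the labels. Peaks were called per library. As deposited by the authors, the fold is a ratio of summit pileup to local background, the −log10 p and −log10 q are the caller's statistics per peak, and the score is 10 times the −log10 q without decimals. Read totals are not in the lists. Summit pileup was recovered as the whole number for which the deposited fold, read as (pileup + 1) over (background + 1), and a Poisson upper tail both hold within 0.002 of −log10 p. It was found for all peaks but 1. This reading is inferred from the values, and the local background may come partly from an IgG library if one was used. The most frequent background of a list was taken as the genome-wide one. For scaling, pileup and local background were multiplied by the ratio of genome-wide backgrounds, the pileup was rounded to a whole number, and the p was computed again. Scaling keeps the original summit and adds no new peak.

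Peaks overlapping by at least 1 bp were merged. Where a list had 2 peaks in a region, the stronger was used for summits and strength. Distances are the bases between edges. Shares have Wilson 95% intervals, which cover counting error only. The regions and the rules for naming them were chosen with earlier results of these data known. Named are the 10 regions of highest mean −log10 q, the 3 of highest lowest −log10 q, the 3 widest, the 3 farthest from the lists without a peak, the 3 with the closest summits among the 100 strongest, the 2 of lowest mean −log10 q, and 2 with 1 extra weak peak. The merging code and the pileup search were tested on simulated data. No genome or annotation of build rn7 was used, so genes and sequences were not analysed here. Python 3.11.15, numpy 2.4.6, pandas 2.3.3, scipy 1.17.1 and matplotlib 3.10.9 were used.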

Additional observations from a re-analysis of the deposited data

How the results depend on the processing

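Of the alternative values, 24 stayed within 1.5 times the reported count or within the interval of the reported value, and 25 did not. The number of opposed regions (1401) went to 537 and 91 with −log10 q of at least 5 and 10 in all lists, to 57 and 0 with these thresholds in the 3 lists with a peak, to 626 with equal numbers of peaks, to 849 where each pair of peaks overlapped by 50% of its shorter member or more and to 587 with summits within 250 bp. Joining peaks up to 500 or 1000 bp apart gave 1510 and 1569, and a shared base 1238. Scaling all marks gave 1175, or 1028 with pileups rounded down, where the regions of all 3 marks in control were as many. Scaling H4K16la alone gave 1181, H3K9la alone 1384 and H4K8la alone 1406. These single-mark scalings and the rounding were chosen after seeing the data. In the 57 regions with all peaks at −log10 q of at least 5, the median −log10 q was 6.503 in H4K16la lactate, 6.80 in H3K9la control and 6.38 in H4K8la control by construction. Their median widths were 546 bp in H3K9la control and 590 bp in H4K8la control, and the summit span was 146 bp (267 bp where all 3 peaks share a base). A peak within 5 kb was found for 14.0% (H4K16la control), 26.3% (H3K9la lactate) and 17.5% (H4K8la lactate), and 3.51% lay on chromosome 10, or 0.459 per Mb rescaled to 1401 regions. The cause of these shifts was not tested, and 57 regions limit their precision. Windows of 1 kb and 20 kb gave 4.43% and 69.2%, 4.71% and 72.6%, and 4.85% and 65.9% for the same 3 lists, by construction. No paired analysis was possible because each group has 1 library. Summits of 6 to 20 fragments, which most of these peaks have, limit every call near the threshold.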
